A study of Homo sapiens with 6 samples.

Results

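The genes described here build the synaptic vesicle and the SNARE machinery that fuses it with the plasma membrane: SNAP25, STX1A, VAMP1, VAMP2, SYT1, SYN1, SYP, SV2A and SYNJ1. They were taken by name, as every probe set whose platform annotation gives 1 of these symbols, which yielded 16 of 22215 probe sets and 9 of 11963 genes. Human neuroblastoma SH-SY5Y cells had been kept for 4 h in medium with free bilirubin at 140 nM (Bf 140 nM, 3 arrays) or with the solvent alone (DMSO 0.6%, 3 arrays). Bilirubin was itself dissolved in DMSO, so both groups received the solvent. Each array carried RNA from a separate flask, and the study describes the replicates as independent biological ones. SH-SY5Y is a single tumour-derived line of immature noradrenergic neurons, so the levels are those of dividing neuroblasts and not of mature synapses. The comparison asks whether unconjugated bilirubin changed these transcripts early.

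Neurons store transmitter in vesicles and release it when calcium enters. VAMP on the vesicle pairs with syntaxin-1 and SNAP-25 on the plasma membrane, and the coiling of these SNARE proteins into a bundle of helices drives fusion, with synaptotagmin-1 as the calcium sensor. Synapsin tethers the reserve vesicles, synaptophysin and SV2A are membrane proteins of the vesicle, and synaptojanin-1 helps the clathrin coat to be shed after retrieval. Neuroblastoma cells use the same machinery for large dense-core vesicles.

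At 4 h the transcripts of this machinery did not separate the groups. None of the 16 probe sets passed an adjusted p of 0.10 in limma (0 of 16), where the share over all probe sets was 0%. At an unadjusted p under 0.05 there were 0 members and 17 of 22215 probe sets (0.0765%). With the replicate number as a block there were 0 members and 92 of 22215 (0.414%). Both shares are far below the cut itself, so both fits were conservative here and counts of 0 say little about small changes. The Bf 140 nM and DMSO 0.6% values overlapped for every member (0 of 16 apart), and 2.66% of all probe sets were apart. The differences, given as Bf 140 nM minus DMSO 0.6% in log2, ran between -0.09 for SV2A and 0.23 for a probe set of SNAP25. The 95% confidence interval excluded a 2-fold change in either direction for 16 of 16 member probe sets, and for 97.8% of all. A 1.5-fold change was excluded for 10 of 16, against 85.7% of all, and with the replicate number as a block for 15 of 16, against 97.5% of all. Values are on a variance-stabilised log2 scale that is compressed for dim probe sets, so their folds are understated. Counted from levels, 9 of 16 member probe sets lay above the array median on all 6 arrays, against 45.1% of all. In bulk RNA, fewer cells that express a gene and less RNA per cell cannot be told apart.

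Correlations between arrays lay between 0.971 and 0.996 across probe sets. The median of DMSO replicate 3 was 7.85, and the other arrays had medians of at least 7.94. DMSO replicate 3 stood apart in the 3' minus 5' differences of the control probe sets, an indirect reading of RNA quality. Its 3' minus 5' difference of the beta-actin control probe sets, which grows as transcripts become less complete, was 2.21, while the 5 other arrays lay between 0.10 and 0.89. The same measure for GAPDH was 1.30 on that array and between 0.10 and 0.38 on the others. Of the noradrenergic markers, 8 of 10 measured lay above the array median on all 6 arrays, with mean levels of 10.99 to 11.34 in Bf 140 nM and 11.04 to 11.28 in DMSO 0.6%. The exceptions were the transcription factor HAND2 and the tyrosine hydroxylase TH, at mean percentiles of 45.7 and 12.1 of the array. Of the mesenchymal or Schwann markers 6 of 10 lay above the median (mean levels of 8.78 to 8.97 in Bf 140 nM and 8.80 to 9.07 in DMSO 0.6%), and of the astrocyte markers 0 of 5 (7.28 to 7.61 in Bf 140 nM and 7.34 to 7.37 in DMSO 0.6%). Counted the same way, by the brightest probe set of each gene, 53.3% of all genes lay above the median on all 6 arrays.

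The SNAP25 gene (chr20:10218830-10307418, in the GRCh38.p14 build of RefSeq, as for all positions given here) encodes a protein that contributes a pair of the helices of the fusion complex and is a target of several botulinum toxins. Its brighter probe set (202508_s_at) read 10.68, 10.60 and 11.23 in Bf 140 nM replicates 1, 2 and 3, against 10.54, 11.05 and 11.02 in DMSO 0.6% replicates 1, 2 and 3. The groups overlap, and the means were 10.84 ± 0.34 in Bf 140 nM and 10.87 ± 0.29 in DMSO 0.6% (SD, n = 3 each). The difference was -0.03 (SE 0.21, 95% CI -0.52 to 0.45, adjusted p = 1.00 by limma). By this measure SNAP25 lay between percentiles 87.7 and 91.9 of the array's probe sets.

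The second SNAP25 probe set (202507_s_at) gave another picture. It read 9.72, 9.57 and 9.68 in Bf 140 nM, against 9.82, 9.85 and 8.58 in DMSO 0.6%. A single array, DMSO replicate 3, was low, and the other DMSO 0.6% arrays were above all 3 Bf 140 nM arrays. Its difference of 0.23 (SE 0.32, 95% CI -0.52 to 0.99) was the highest among the members, and without DMSO replicate 3 it was -0.18. Adjusted for the beta-actin 3' minus 5' difference it was 0.04. DMSO replicate 3 minus the mean of the other DMSO 0.6% arrays was -1.25 here and 0.23 in the brighter probe set.

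Syntaxin-1A, the partner of SNAP-25 in the plasma membrane, showed the narrowest range of pair means among the members. STX1A (204729_s_at, chr7:73699210-73719669) read 8.97, 9.14 and 9.16 in Bf 140 nM, against 9.16, 9.07 and 9.06 in DMSO 0.6%. The values of the groups interleave. The difference was -0.01 (SE 0.10), and its 95% interval of -0.24 to 0.23 corresponds to ratios of 0.847 to 1.17. The means of the 3 same-numbered pairs of arrays spanned 0.05, at percentile 4.38 of all probe sets. STX1A lay between percentiles 65.9 and 71.1.

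The vesicle SNAREs VAMP1 and VAMP2, also called synaptobrevins, are close paralogs that carry the helix on the vesicle side. VAMP2 (chr17:8159147-8162948) had 3 probe sets. The brightest (201557_at) read 8.59, 8.73 and 8.23 in Bf 140 nM, against 8.43, 8.51 and 8.33 in DMSO 0.6%, a difference of 0.09 (SE 0.15). Bf 140 nM holds both the highest and the lowest of these values. The second (201556_s_at) read 7.36, 7.83 and 7.37 in Bf 140 nM, against 7.28, 7.48 and 7.28 in DMSO 0.6%, a difference of 0.17 (SE 0.15, 95% CI -0.18 to 0.53). It was higher in Bf 140 nM in all 3 same-numbered pairs, by 0.08, 0.35 and 0.09, and the difference was 0.02 without Bf 140 nM replicate 2. A single sign in all pairs was seen for 2 of 16 member probe sets and for 13.7% of all probe sets. The third (214792_x_at) had means of 7.21 ± 0.16 in Bf 140 nM and 7.17 ± 0.09 in DMSO 0.6% (SD, n = 3 each) and a difference of 0.04.

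VAMP1 (chr12:6462237-6470677) had 3 probe sets too. The brightest (213326_at) read 8.04, 7.85 and 8.05 in Bf 140 nM, against 8.04, 7.98 and 8.04 in DMSO 0.6%, close to the array median. Its difference was -0.04 (SE 0.10, 95% CI -0.28 to 0.19). The next (207100_s_at) averaged 7.49 ± 0.02 in Bf 140 nM and 7.43 ± 0.10 in DMSO 0.6% (SD, n = 3 each). The dimmest (207101_at) read 7.03, 7.20 and 6.77 in Bf 140 nM, against 7.01, 7.16 and 6.46 in DMSO 0.6%. On it both arrays of replicate number 3 were the lowest of their group, and the difference of 0.12 (SE 0.20) was -0.09 without DMSO replicate 3. It was the other probe set with 1 sign in all pairs, at 0.01, 0.04 and 0.31.

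**Figure D1:**
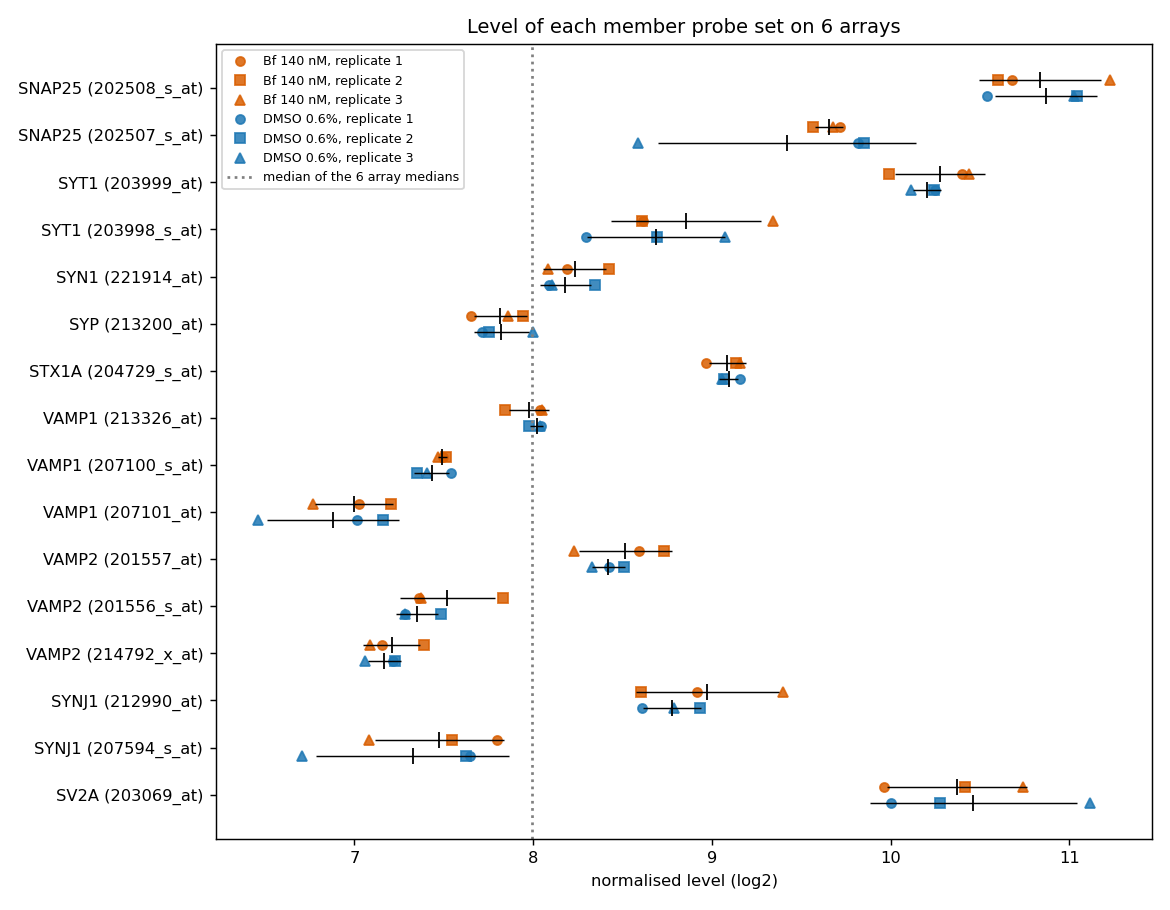
Normalised level (log2, horizontal) of the 16 member probe sets on each of the 6 arrays, with Bf 140 nM (orange) above DMSO 0.6% (blue); marker shapes give the replicate number, black bars the mean and SD of 3 arrays, and the dotted line the median of the array medians. Every probe set overlaps between groups, and DMSO replicate 3 is the far point for a probe set of SNAP25 (8.58), of SYNJ1 (6.70) and for SV2A (11.11).

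Synaptotagmin-1 binds calcium through its C2 domains and triggers the fusion of primed vesicles. The brighter probe set of SYT1 (chr12:78863982-79452008), 203999_at, read 10.40, 9.99 and 10.44 in Bf 140 nM, against 10.25, 10.25 and 10.11 in DMSO 0.6%, between percentiles 83.3 and 85.4. Its difference was 0.07 (SE 0.14, 95% CI -0.26 to 0.40). The dimmer one (203998_s_at) read 8.62, 8.61 and 9.34 in Bf 140 nM, against 8.30, 8.69 and 9.07 in DMSO 0.6%. Both arrays of replicate number 3 were high, and the difference of 0.17 (SE 0.26) was smaller than the 0.75 by which the pair means differed.

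Synapsin-1 links vesicles to actin and to each other and releases them when phosphorylated. SYN1 (221914_at, chrX:47571901-47619857) read 8.19, 8.43 and 8.08 in Bf 140 nM, against 8.09, 8.35 and 8.11 in DMSO 0.6%. The replicate number 2 arrays were the highest in both groups. The difference was 0.05 (SE 0.13, 95% CI -0.25 to 0.36), and the probe set lay between percentiles 51.8 and 58.4.

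SYN1 is a textbook target of REST, the repressor that keeps neuronal genes silent elsewhere by binding the RE1 element. It is shown because, among the member windows searched, only its own held the exact letters given below. SNAP25 had no window, and other forms or positions of the element were not searched. Promoters of 8 of the 9 genes (11 start sites, RefSeq, GRCh38.p14, 250 bases before to 50 after the start) were searched on both strands. The RE1 parts TTCAGCACC and GGACAG with 2 bases between them occurred in SYN1 alone among the members, and in 5 of 35116 promoters of that length (0.0142%). The 250 bases before the start, chrX:47619858-47620107 on the minus strand, follow 5′ to 3′, with the match in capitals, 233 to 217 bases before the start.
SYN1: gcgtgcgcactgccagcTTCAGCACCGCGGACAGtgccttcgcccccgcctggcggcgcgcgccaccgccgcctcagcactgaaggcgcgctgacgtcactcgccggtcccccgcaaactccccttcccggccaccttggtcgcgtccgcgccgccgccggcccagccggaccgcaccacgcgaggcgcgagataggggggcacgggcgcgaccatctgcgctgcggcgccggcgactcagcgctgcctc

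The same stretch of SYN1 holds the palindrome TGACGTCA of the cyclic AMP response element, 159 bases before the start, which 1.85% of promoters hold. The GC box GGGCGG, on either strand, occurred in 9 of the 11 member promoters and in 45.0% of all promoters. By gene it occurred in 6 of the 8 members with a promoter (STX1A, SYNJ1, SYP, SYT1, VAMP1 and VAMP2). STX1A had 7 of them on the given strand between 127 and 26 bases before the start. TATAAA occurred in 0 of the 11 member promoters and in 11.5% of all. CpG counts per window were at or above the median of 14 in all member windows except that of SV2A, which had 3 and a GC content of 37.3%, while the VAMP2 windows had 51 and 47. The SV2A window (chr1:149906942-149907241, minus strand) lies well inside the gene and not at its 5′ end. The start site of the SYT1 window, and those of some SYNJ1 and VAMP2 windows, also lie inside their genes. These matches describe the letters of a window and no binding was measured.

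Synaptophysin is a major membrane protein of small vesicles and a common marker of neuroendocrine tumours. SYP (213200_at, chrX:49187815-49200193) read 7.65, 7.94 and 7.86 in Bf 140 nM, against 7.72, 7.76 and 8.00 in DMSO 0.6%. The means were 7.82 ± 0.15 in Bf 140 nM and 7.82 ± 0.15 in DMSO 0.6% (SD, n = 3 each), and the difference was below 0.01 in size, with a 95% interval of -0.30 to 0.29. It lay around the array median, between percentiles 43.2 and 53.0, and detection calls that could tell such a level from background were not used here.

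SV2A is a vesicle glycoprotein and the binding site of the antiepileptic drug levetiracetam. SV2A (203069_at, chr1:149903318-149917844) read 9.96, 10.41 and 10.74 in Bf 140 nM, against 10.00, 10.28 and 11.11 in DMSO 0.6%. The arrays of replicate number 1 were the lowest and those of number 3 the highest in both groups, and the pair means spanned 0.95, at percentile 97.5 of all probe sets. The difference of -0.09 (SE 0.31, 95% CI -0.82 to 0.64) was 0.23 without DMSO replicate 3 and 0.09 when adjusted for the beta-actin difference. With the replicate number as a block its SE was 0.13 and its 95% interval -0.37 to 0.19.

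Among bright, variable genes the 3 whose levels followed SV2A most closely over the 6 arrays were IER3IP1, RAC1 and SIX3. Pearson r was 0.99, 0.99 and 0.98, the highest of 2411 genes compared, as a description over arrays that share replicate numbers. RAC1 read 13.04, 13.24 and 13.52 in Bf 140 nM, against 13.12, 13.23 and 13.78 in DMSO 0.6%. Like SV2A, all 3 were highest on DMSO replicate 3, by 0.98, 0.61 and 0.71 above the mean of the other DMSO 0.6% arrays. This follows from choosing them by likeness to SV2A over the same arrays and is no separate observation.

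Synaptojanin-1 dephosphorylates phosphoinositides so that the clathrin coat can be shed. The brighter probe set of SYNJ1 (chr21:32628759-32728394), 212990_at, read 8.92, 8.60 and 9.40 in Bf 140 nM, against 8.61, 8.93 and 8.79 in DMSO 0.6%. Its difference of 0.20 (SE 0.20, 95% CI -0.28 to 0.67) was made of 0.31, -0.33 and 0.61 in the 3 pairs, and was -0.02 without Bf 140 nM replicate 3. The dimmer one (207594_s_at) read 7.80, 7.55 and 7.08 in Bf 140 nM, against 7.65, 7.63 and 6.70 in DMSO 0.6%. The arrays of replicate number 3 were the lowest in both groups, the opposite of their position in the brighter probe set within Bf 140 nM. The difference was 0.15 (SE 0.29), and -0.16 without DMSO replicate 3.

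**Figure D2:**
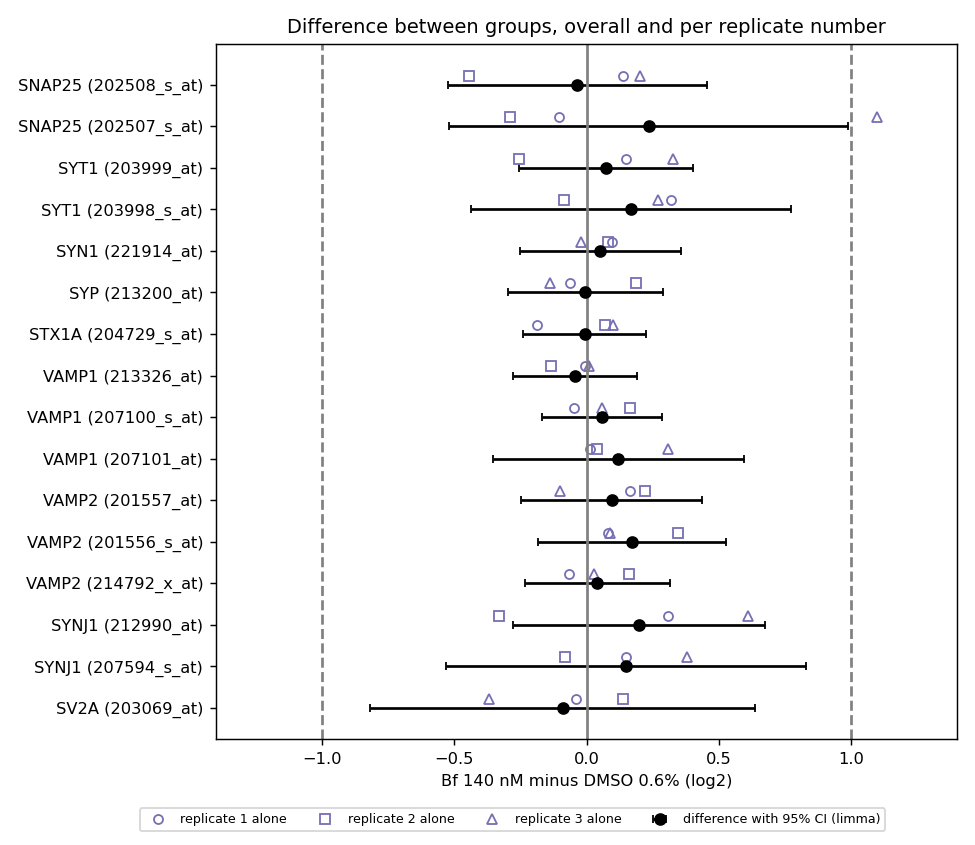
Difference Bf 140 nM minus DMSO 0.6% (log2, horizontal) for each member probe set: black points with the 95% confidence interval from limma, open markers for each replicate number alone; dashed lines mark 2-fold changes. All 16 intervals cross 0 and stay within the dashed lines, while for 14 of 16 probe sets the replicate numbers lie on both sides of 0.

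For 16 of 16 member probe sets the range of the 3 pair means was larger than the size of the difference between groups. This held for 89.6% of all probe sets too and is not particular to the members. The median range was 0.33 for the members and 0.22 over all probe sets, and the median size of the difference was 0.08 and 0.06. DMSO replicate 3 lay over 0.5 from the mean of the other DMSO 0.6% arrays for 5 of 16 member probe sets, against 15.2% of all. It was lower for SNAP25 202507_s_at (-1.25), SYNJ1 207594_s_at (-0.93) and VAMP1 207101_at (-0.62), and higher for SV2A (0.97) and SYT1 203998_s_at (0.58). Without that array 7 of 16 member differences changed sign.

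Probe sets of one gene could be set against each other within an array. The brighter minus the dimmer SNAP25 probe set was 0.96, 1.04 and 1.55 in Bf 140 nM, against 0.72, 1.19 and 2.44 in DMSO 0.6%. Its range of 1.72 lay at percentile 97.7 of the 11661 same-gene pairs on the array, whose median range was 0.51. For SYNJ1 the gap was 1.12, 1.06 and 2.32 in Bf 140 nM, against 0.96, 1.31 and 2.09 in DMSO 0.6%, wide on both arrays of replicate number 3. For SYT1 it ran the other way, at 1.78, 1.38 and 1.10 in Bf 140 nM, against 1.95, 1.55 and 1.04 in DMSO 0.6%. The SNAP25 and SYT1 gaps had opposite extremes on the same arrays, DMSO replicates 1 and 3, which also had the lowest and the highest beta-actin 3' minus 5' difference (0.10 and 2.21). The part of RNA quality in these gaps was not tested. The probe sets of VAMP2 kept their distance better, with ranges of 0.30 to 0.38. The difference had the same sign in both probe sets for 6 of 9 member pairs, against 57.6% of all pairs.

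**Figure D3:**
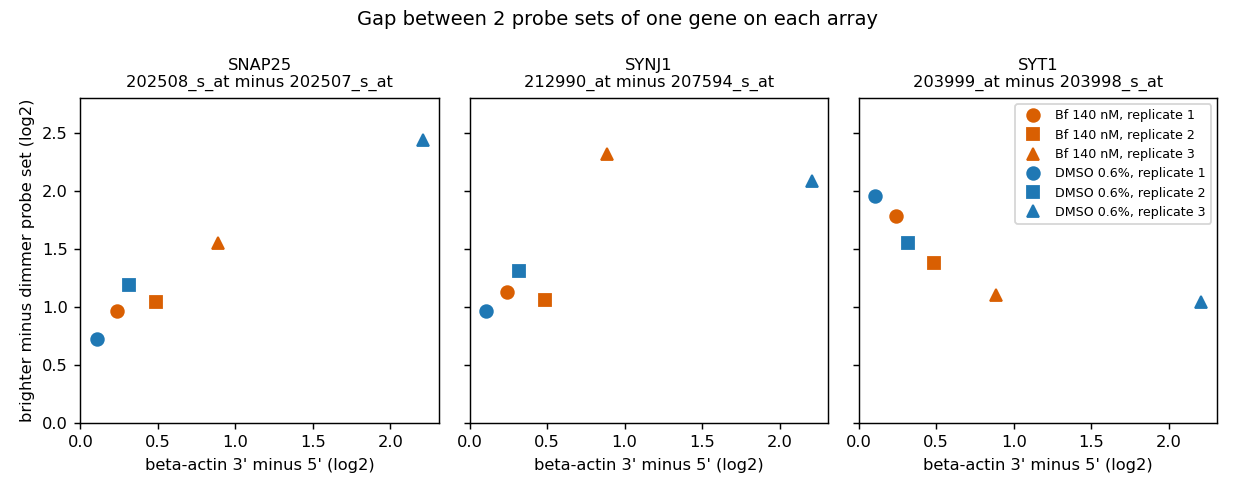
Brighter minus dimmer probe set of SNAP25, SYNJ1 and SYT1 on each array (log2, vertical) against that array's beta-actin 3' minus 5' difference (log2, horizontal), for Bf 140 nM (orange) and DMSO 0.6% (blue), with shapes for the replicate number. The SNAP25 gap is widest (2.44) and the SYT1 gap narrowest (1.04) on DMSO replicate 3, the array with the largest beta-actin difference (2.21). The SYNJ1 gap is widest on Bf 140 nM replicate 3 (2.32), where the beta-actin difference is 0.89, and is 2.09 on DMSO replicate 3.

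The other genes of vesicle release and recycling were counted with 1 probe set per gene, the brightest. Of 140 listed genes 116 were measured, and 0 passed the threshold as higher and 0 as lower in Bf 140 nM by limma. At an unadjusted p under 0.05 there were 0, against 13 of all 11963 genes. The groups did not overlap for 2 genes higher and 3 lower, against 220 higher and 99 lower of all 11963 genes (and 2.66% of all probe sets in either direction). The listed genes apart were the complexin CPLX3 (0.15) and the vesicular glutamate transporter SLC17A6 (0.06), and SV2B (-0.08), the endophilin SH3GL2 (-0.04) and the liprin PPFIA3 (-0.05), named after their values were seen. Their mean percentiles on the array were 21.4, 4.49, 14.8, 3.38 and 57.7. All but PPFIA3 were thus dim, where the scale is compressed, and whether they were expressed was not tested. The differences of the 116 genes ran between -0.15 and 0.28, with a median of 0.04. For the 9 members the median by their brightest probe sets was below 0.01 in size, with 4 above 0 and 5 below, and for all genes it was 0.03. Over all 16 member probe sets the median was 0.07, with 11 above 0, against 0.03 and 63.2% over all probe sets, and with the median of each gene's probe sets it was 0.06. Whether the members lay below or above the rest thus depended on the probe sets taken.

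SNAREs of other membranes and close paralogs had 22 of 25 genes above 0 and a median of 0.06, where 63.7% of all genes were above 0. This count was not repeated without DMSO replicate 3, on which single genes stood apart in either direction. YKT6, the highest of the list at 0.19, read 10.98, 11.02 and 10.26 in DMSO 0.6%. SEC22B read 9.93, 10.68 and 11.43 there. They included VAMP3, the synaptobrevin of recycling endosomes, at 11.77 ± 0.27 in Bf 140 nM and 11.71 ± 0.18 in DMSO 0.6% (SD, n = 3 each), and VTI1B, an endosomal SNARE, with a difference of 0.14 (SE 0.12). Of the regulators, 7 of 9 were above 0, with a median of 0.06. NSF, the ATPase that pulls used SNARE complexes apart, differed by 0.19 (SE 0.16) and its adaptor gene NAPA by 0.11 (SE 0.25). In DMSO 0.6% NSF read 10.73, 10.75 and 10.32, and NAPA 9.79, 9.98 and 9.05. DMSO replicate 3, the last of these, was the lowest for both. The Bf 140 nM mean was above the other DMSO 0.6% arrays for NSF (10.79) but below them for NAPA (9.72). Neither difference was repeated without DMSO replicate 3.

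Calcium sensors and priming factors had 13 of 22 genes above 0 and a median of 0.02. RAB3GAP1, which acts on the vesicle GTPase Rab3, differed by 0.05 (SE 0.26) and SYT11 by -0.13 (SE 0.23). Vesicle membrane proteins and transporters had 12 of 18 above 0 and a median of 0.05, with the carrier membrane protein genes SCAMP3 at -0.02 (SE 0.13) and SCAMP1 at -0.12 (SE 0.15). Endocytosis genes had 15 of 26 above 0 and a median of 0.01. The clathrin heavy chain gene CLTC read 13.35 ± 0.14 in Bf 140 nM and 13.36 ± 0.10 in DMSO 0.6%, and the light chain gene CLTA 12.53 ± 0.11 in Bf 140 nM and 12.32 ± 0.12 in DMSO 0.6% (SD, n = 3 each). The active zone scaffold had 9 of 16 above 0 and a median below 0.01, with APBA2 at -0.01 (SE 0.09) and LIN7C at -0.14 (SE 0.26).

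**Figure D4:**
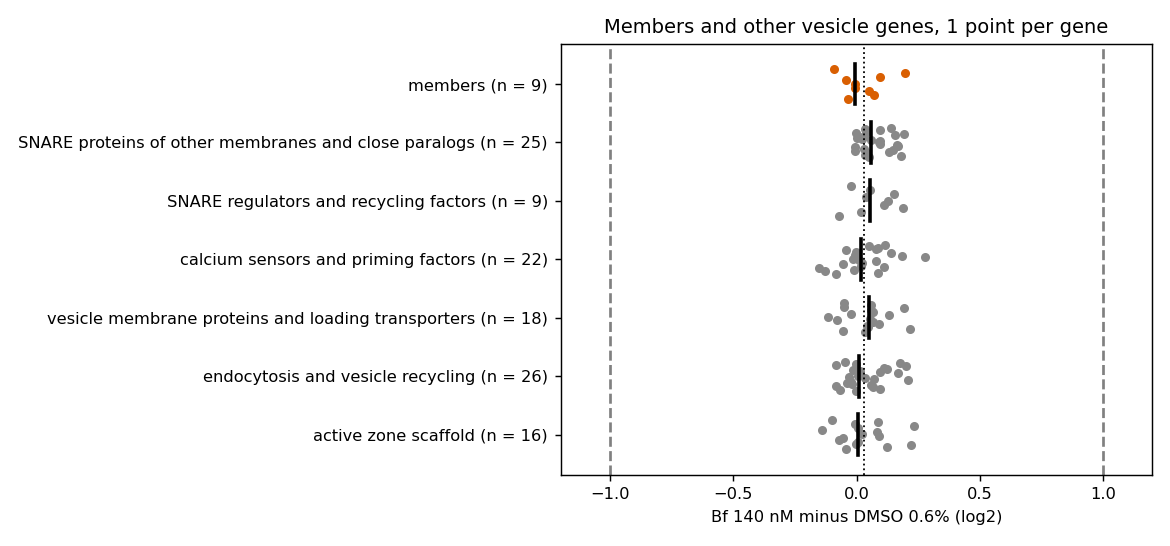
Difference Bf 140 nM minus DMSO 0.6% (log2, horizontal), 1 point per gene by its brightest probe set, for the 9 members (orange) and 6 lists of other vesicle genes (grey); black bars are list medians, the dotted line the median of all genes (0.03) and dashed lines 2-fold changes. All points lie between -0.15 and 0.28.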

How the data were processed

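Affymetrix human gene expression arrays were hybridised with labelled cRNA from SH-SY5Y cells. The deposited log2 values were made by the authors from GCOS cell intensities with variance-stabilizing normalization (justvsn, vsn package, R version 2.5.0). The sources used here do not state how the probes of a set were summarised. Detection calls were not used here. Arrays carry no read depth, so the number of arrays limits the precision.

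Of 22277 probe sets, 62 controls served for array quality only and 22215 were tested. Names came from the platform annotation, updated through Entrez identifiers: 19064 probe sets had 1 symbol, 1043 several and 2108 none. Groups were compared with limma (version 3.58.1, R version 4.3.3), unpaired and two-sided, with Benjamini-Hochberg adjustment over all tested probe sets and a threshold of 0.10, after the FDR in the methods; SAM, the test named there, was not run. The fit was tested on simulated data with independent noise on each array. That test does not cover arrays that share a replicate number or the outlying DMSO replicate 3. Every member and probe set is named. For other lists the 2 brightest genes are named, and for the most variable bright member the 3 genes with the highest Pearson r among those above the median level with at least 0.5 of its SD. The members, lists and motifs were chosen with earlier results of these data known.

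Both groups carry replicate numbers 1, 2 and 3. Deviations of same-numbered arrays from their group means correlated at 0.60, 0.23 and 0.57, above the minimum of 0.1, so the numbers were taken to pair the arrays. The main fit was still unpaired, and the SEs, intervals and p-values are from it unless another fit is named. Alternatives were the replicate block, quantile normalization, array medians, a level filter, an intensity trend, each array left out, the beta-actin difference as a covariate and, for the median of the members, other choices of probe sets. The fits without pair 3 were added after the data were seen.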

Additional observations from a re-analysis of the deposited data

How the results depend on the processing

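No member probe set passed the threshold in any of the 14 alternative fits, and the lowest adjusted p of a member was 0.998. With the replicate block the count stayed at 0 of 16, no difference changed sign, and the median SE of the members was 0.12, against 0.15 unpaired. The block changed no call. Over all probe sets the count was 0 in every alternative except the replicate block without pair 3, where it was 2, none of them a member. Leaving out 1 array gave 0 calls each time and between 8 and 14 member probe sets above 0, against 11 with all arrays, and 6 of 10 were above 0 with the level filter. The median of the 9 members ran between -0.025 and 0.057 without 1 array, was -0.045 under quantile normalization and -0.037 with array medians subtracted, and was 0.043 with the beta-actin covariate and 0.058 with the median of all probe sets of a gene. Without probe sets whose suffix marks shared sequence only 7 members remained, as SNAP25 and STX1A had no others, and their median was 0.052. The causes were not tested.

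The sign of a member's difference held for 2 of 16 probe sets, VAMP1 207100_s_at and VAMP2 201556_s_at, in the 13 alternative fits that tested them (the level filter removed both), and under quantile normalization, array medians, the intensity trend and the level filter for all those tested. Without 1 array the differences ran between -0.18 and 0.45 for SNAP25 202507_s_at, -0.23 and 0.082 for SNAP25 202508_s_at, -0.042 and 0.053 for STX1A, -0.32 and 0.23 for SV2A, and -0.045 and 0.13 for SYN1. They ran between -0.16 and 0.34 for SYNJ1 207594_s_at, -0.016 and 0.38 for SYNJ1 212990_at, -0.067 and 0.083 for SYP, -0.074 and 0.36 for SYT1 203998_s_at, and -0.0099 and 0.22 for SYT1 203999_at. For VAMP1 they ran between 0.017 and 0.11 (207100_s_at), -0.088 and 0.26 (207101_at) and -0.079 and 0.023 (213326_at), and for VAMP2 between 0.016 and 0.25 (201556_s_at), -0.013 and 0.24 (201557_at) and -0.048 and 0.10 (214792_x_at). With the beta-actin covariate the sign turned for SNAP25 202508_s_at (0.031), SYP (0.043), SYNJ1 207594_s_at (-0.024) and SV2A (0.094). Without pair 3, blocked or not, it turned for SNAP25 202507_s_at (-0.20), SYT1 203999_at (-0.054), SYP (0.062), SYNJ1 212990_at (-0.010) and SV2A (0.049).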
